A study of Mus musculus with 10 samples.

Results

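The genes described here were those that encode potassium, sodium, calcium and chloride channels of the voltage-gated, inward rectifier, leak, calcium-activated and ClC families, together with their auxiliary subunits. They were chosen by gene symbol alone (symbols starting with Kcn, Cacn or Clcn, and the numbered Scn a and b genes, leaving out the noncoding Kcnq1ot1), and 134 of the 19938 genes measured on the array met that rule. Of these, 72 encode potassium channel pores, 17 potassium channel auxiliary subunits, 8 sodium channel pores, 3 sodium channel auxiliary subunits, 10 calcium channel pores, 14 calcium channel auxiliary subunits and 7 chloride channels or transporters, while 3 are antisense transcripts of channel genes (Kcnd3os, Kcnmb4os1 and Kcnmb4os2). A further 12 protein-coding genes fit the rule but had no probe set of their own and were not analysed here, among them Scn4a (the sodium channel pore of mature muscle fibers) and Cacnb3.

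RNA from adult mouse muscle was hybridised to Affymetrix Mouse Gene 1.0 ST arrays, in which each gene is read by probes along its transcript. In the tibialis anterior (TA) of C56BL6N mice (strain as spelled in the labels; the study's methods name C57Bl6) aged 8 weeks, 10 µg of a plasmid expressing a short hairpin RNA against the long noncoding RNA linc-MYH (shlincMYH) or a control vector was electroporated, and fibers expressing the plasmid's GFP were dissected 2 weeks later (2 arrays per group). In the gastrocnemius of C56BL6N mice aged 8 weeks, cSix1 KO muscles were set against wild type muscles (3 arrays per group); in the KO a floxed gene was deleted by a Cre recombinase under the human skeletal actin promoter, which acts in muscle fibers, whereas the whole muscle with its vessels, nerves and other cells was collected. The targets of the knockdown and of the deletion are not analysed here, so neither could be checked. The study's methods state that electroporated muscles of 1 condition were taken from different mice and that the negative control plasmid was placed in the opposite leg, so the control and shlincMYH arrays may come from the same mice. The labels do not tie arrays to mice, and the TA test treated the groups as unpaired. For gastrocnemius the sources used here do not state that replicates came from separate animals, so p-values there measure the spread between these samples, which may be technical.

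A skeletal muscle fiber fires an action potential through voltage-gated sodium channels, carries it into the transverse tubules, and there moves the voltage sensor of the L-type calcium channel Cav1.1 (Cacna1s with Cacna2d1, Cacnb1 and Cacng1), which opens the ryanodine receptor. The chloride channel ClC-1 (Clcn1) and inward rectifier potassium channels (Kcnj2, Kcnj12) hold the resting potential, and the ATP-sensitive potassium channel (Kcnj11 with Abcc9 or Abcc8) ties excitability to metabolism. Many other channels of these families are best known from nerve, brain, vessel wall or immune cells, and several are read in muscle close to the background of an array.

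All values are RMA log2 signals, so a difference is the log2 of a fold. A gene was called dim in a tissue when neither group mean exceeded the level below which 95% of the 1015 odorant receptor genes lay, genes with little known use in muscle (4.86 in TA, 6.04 in gastrocnemius). By that measure 65 of the 134 channel genes were above background in TA, beside 62.3% of all genes, and 79 in gastrocnemius, beside 68.1% of all genes. The 2 tissues were set side by side only as differences, since their arrays have different distributions (array medians of 5.09 to 5.14 in TA and 6.60 to 6.67 in gastrocnemius). All 7 chloride channel genes were above background in both tissues, whereas 6 of the 8 sodium channel pores, 13 of the 17 potassium auxiliary subunits in TA and 12 in gastrocnemius, and 37 and 28 of the 72 potassium pores were dim. Dim genes totalled 69 in TA and 55 in gastrocnemius, and 54 were dim in both. Each tissue expressed its defining markers. The 6 skeletal muscle fiber markers Acta1, Ckm, Myh4, Pvalb, Tnnt3 and Mylpf had mean levels per array of 12.2 to 12.5 in TA and 13.3 to 13.6 in gastrocnemius.

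In the cSix1 KO gastrocnemius, 3 channel genes passed the test across all genes (limma, adjusted p under 0.05): the sodium channel Scn2a rose, and the potassium channels Kcng4 and Kcnj11 fell. Over all genes 1.74% were called, 0.908% higher and 0.833% lower, so that 3 of 134 is a share near the background. The count was 8 without cSix1 KO replicate 3, 2 to 3 without each other array, 10 with weights given to the arrays and 0 by the methods' t-test. Calls over all 19938 genes moved as well, from 347 to 560 without that replicate, 989 with weights and 4 by the t-test. Unadjusted p-values under 0.05 were found for 9 channel genes that were higher and 14 that were lower, beside 8.44% and 6.5% of all genes, and the arrays of the groups did not overlap for 14 higher and 16 lower, beside 11% and 9.85%. The channel genes as a whole did not lie to one side: 69 differences were above 0 (52.8% of all genes were) and 65 below, with a median of 0.003 beside 0.008 over all genes. That split moved with the scaling, to 61 and 73 after quantile normalization and to 45 and 89 when each array was centred on its median.

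**Figure D1:**
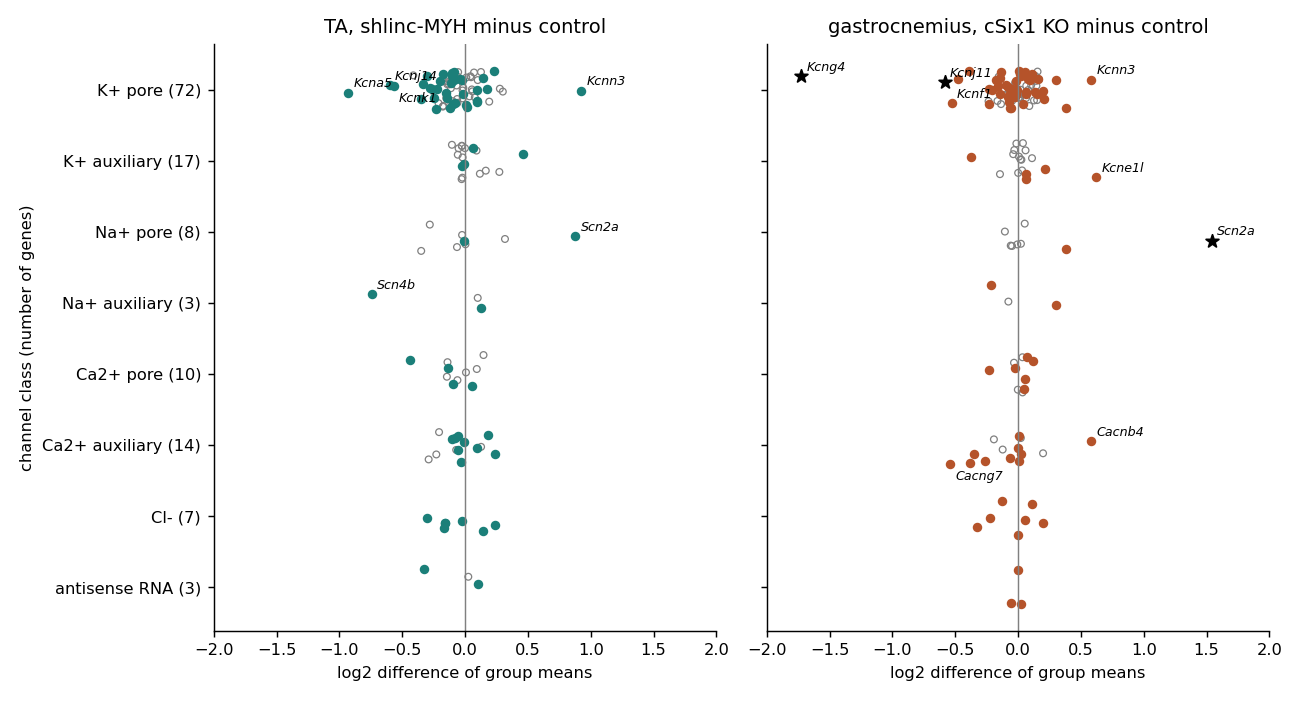
Differences of all 134 channel genes, each point 1 gene, in rows by ion and by pore or auxiliary subunit (number of genes in brackets; vertical position within a row is arbitrary); the horizontal axes give the log2 difference of the group means in TA and in gastrocnemius. Filled points are genes above background, open grey points dim genes and black stars the 3 genes called by limma, all in gastrocnemius; genes beyond 0.5 in size are named.

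Scn2a encodes Nav1.2, a sodium channel pore best known from the brain. Its log2 signals in gastrocnemius were 8.52, 8.88 and 8.46 in the control arrays and 10.13, 10.23 and 10.11 in the cSix1 KO arrays. Every KO array was above every control array by more than the spread within either group. The difference was 1.54 (SE 0.114, 95% interval 1.28 to 1.80, adjusted p = 0.00185 by limma), a 2.91-fold rise. The array carries 14 probe sets for this gene, which share 1 transcript and are not replicates, and the value above is that of the probe set with the highest mean signal. All 14 were higher in the KO, by 0.49 to 1.84, and 8 of them passed when each probe set was fitted on its own over all 35556 (111 called). Some of the 14, among them the one at 0.49, read below the gastrocnemius background of 6.04 in every array. None of those was among the 8. In TA the same probe set read 5.78 and 6.84 in the control arrays and 6.80 and 7.58 in the shlincMYH arrays. These groups overlap, and the difference of 0.88 (SE 0.386, adjusted p = 0.600; 0.35 to 1.41 without single arrays) did not pass; 13 of the 14 probe sets were above 0 there, with a lowest value of -0.06. Of 3 shared probe sets that carry a channel symbol, none counts for a gene. The one shared by the neighbouring pores Scn9a and Scn3a read 5.17, 5.27 and 5.07 in control and 5.82, 5.73 and 5.49 in KO gastrocnemius. Its difference there was 0.51 (SE 0.104, adjusted p = 0.131 by limma). The 2 probe sets of Scn9a alone, also below background, differed there by -0.02 and 0.02. The one shared by Scn2a, Scn9a and Scn3a differed by 0.05 in gastrocnemius (SE 0.0668, adjusted p = 0.874) and by -0.17 in TA. The one shared by Scn3a and Scn1a differed by -0.01 and 0.01. All 3 lay below the background level of gastrocnemius in every array of that tissue.

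**Figure D2:**
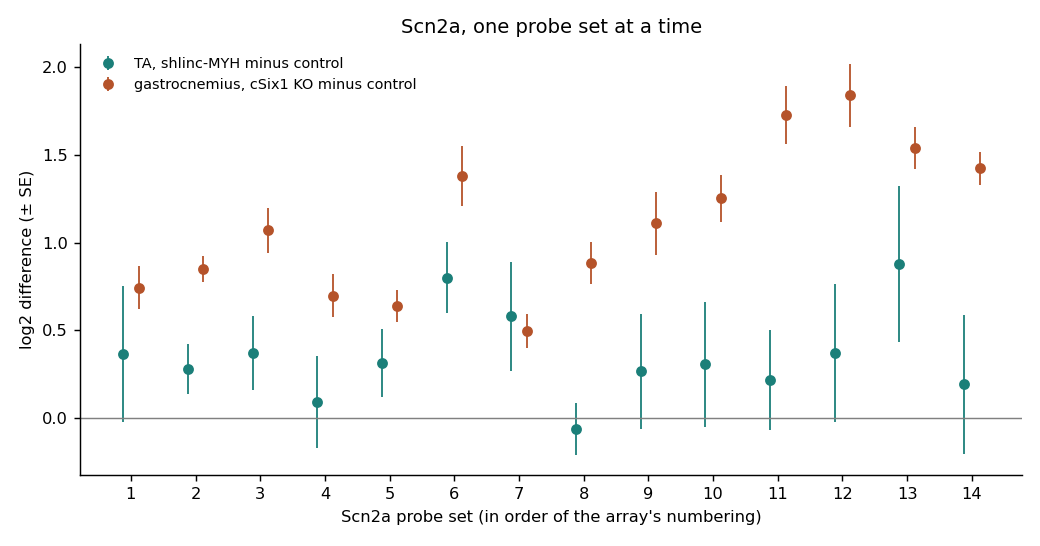
Differences of the 14 Scn2a probe sets (vertical axis, log2 difference with its standard error) in the order of the array's numbering (horizontal axis), in TA (green) and gastrocnemius (orange). All 14 gastrocnemius points lie above 0, between 0.49 and 1.84, while the TA points run from -0.06 to 0.88 with wider errors.

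Kcng4 encodes Kv6.4, an electrically silent subunit that joins Kv2 pores and changes their gating. Its control arrays read 7.67, 7.48 and 8.25 and its KO arrays 5.87, 6.09 and 6.25. The KO arrays were all lower, and their mean of 6.07 was near the background level of 6.04. The difference was -1.73 (SE 0.191, 95% interval -2.17 to -1.29, adjusted p = 0.00771 by limma), or 0.302 of the control level, the lowest value among the 134 genes. In TA its arrays read 6.34 and 6.86 in control and 6.21 and 6.28 with shlincMYH, without overlap but close together, and the difference of -0.35 (SE 0.185, adjusted p = 0.651; -0.61 to -0.09 without single arrays) did not pass.

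Kcnj11 encodes Kir6.2, the pore of the ATP-sensitive potassium channel. Its control arrays read 9.43, 9.52 and 9.26 and its KO arrays 8.85, 8.82 and 8.79. The KO arrays were nearly equal and all below the control arrays, with a difference of -0.58 (SE 0.0805, 95% interval -0.77 to -0.40, adjusted p = 0.0163 by limma), or 0.667 of the control level. The call rests on each of 4 arrays: without cSix1 KO replicate 1 or 2 or control replicate 1 or 2 its adjusted p was 0.0663, 0.0744, 0.0743 and 0.0678. In TA the arrays read 6.05 and 6.15 in control and 5.99 and 6.05 with shlincMYH, a difference of -0.08 (SE 0.118, adjusted p = 0.888).

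**Figure D3:**
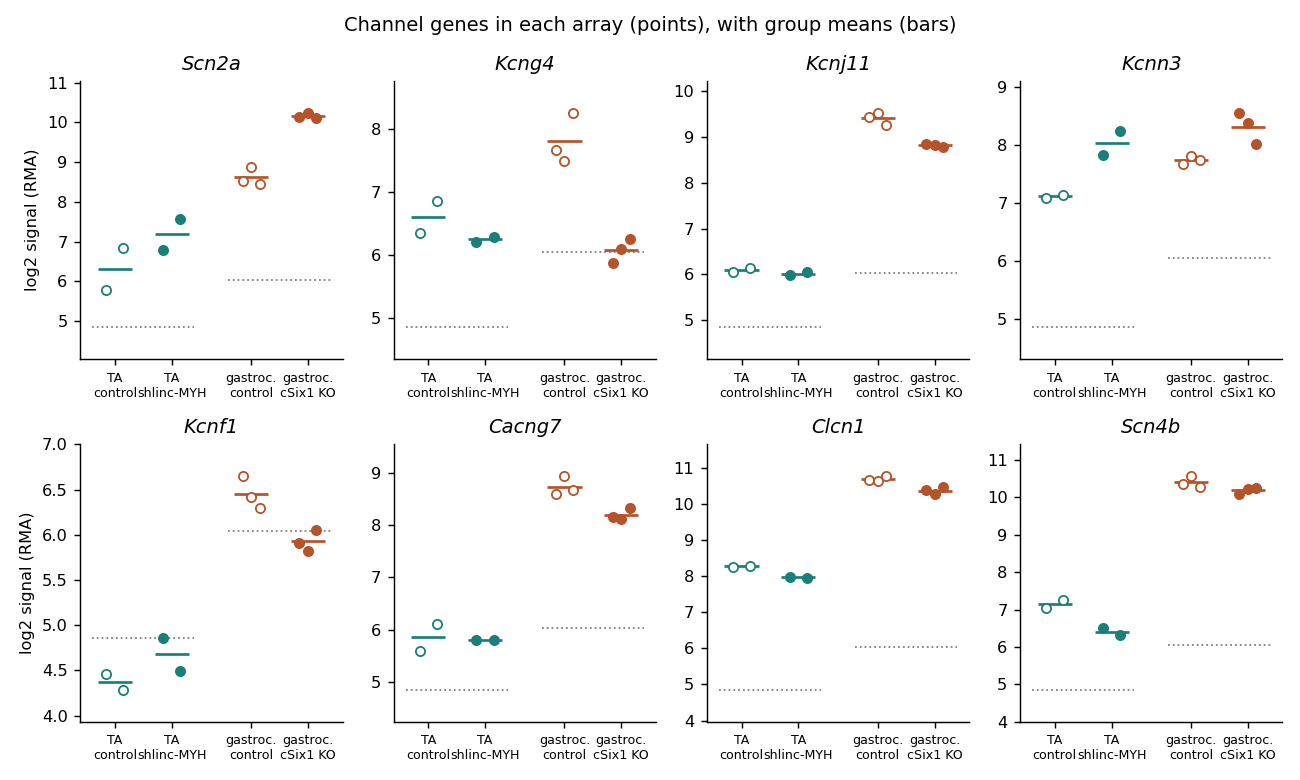
Log2 signal (RMA, vertical axis) of 8 channel genes in each array (points) with the group means (bars): TA in green and gastrocnemius in orange, control open and shlincMYH or cSix1 KO filled, with the background level of each tissue as a dotted line. In gastrocnemius the KO points of Scn2a and Kcnn3 lie above the control points and those of Kcng4, Kcnj11, Kcnf1, Cacng7, Clcn1 and Scn4b below; levels in TA and gastrocnemius are on different scales and are not comparable.

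The channels of the muscle fiber itself formed a list of 18 genes, of which 15 were measured and 14 were above background in each tissue (the potassium channel subunit Kcne3 was dim in both). In gastrocnemius 10 of the 15 differences were below 0 and the median was -0.23, beside 0.008 over all genes; 1 gene was called, Kcnj11. Without overlap between groups 7 were lower and 2 higher, beside 9.85% and 11% of all genes, and at an unadjusted p under 0.05 8 were lower and 1 higher, beside 6.5% and 8.44%. With arrays centred on their median 12 were below 0, and after quantile normalization 10. In TA 11 of the 15 were below 0, with a median of -0.09 beside -0.03 over all genes, and 0 were called. Without overlap 5 were lower and 1 higher there, beside 23% and 16.3% of all genes. The 6 skeletal muscle fiber markers were below 0 in gastrocnemius in 6 of 6 (median -0.12, 0 called) but in 4 of 6 after quantile normalization. There the 6 slow fiber markers Tnnt1, Tnni1, Tnnc1, Myh7, Myl2 and Sln rose in 6 of 6 (median 1.23, 6 called, beside 0.908% of all genes called higher). In TA 5 of these 6 were above 0 (median 1.62, 0 called) and Myh7 was at -0.33. Without overlap 4 of them were higher in TA, beside 16.3% of all genes. The part of both marker lists in the channel values was not tested. In whole muscle, fewer cells or fibers of a type and less RNA per cell cannot be told apart.

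The 4 subunits of the Cav1.1 complex on the list did not move alike. Cacna1s, the voltage sensor and pore, read 12.68, 12.78 and 12.63 in control and 12.41, 12.42 and 12.57 in KO gastrocnemius, a difference of -0.23 (SE 0.0763, adjusted p = 0.212). Cacng1, the gamma1 subunit, read 11.05, 11.17 and 11.06 against 10.85, 10.53 and 10.75, a difference of -0.38 (SE 0.0936, adjusted p = 0.0989). Cacna2d1, the alpha2delta1 subunit, read 12.44, 12.55 and 12.55 against 12.03, 12.12 and 12.34, a difference of -0.35 (SE 0.0920, adjusted p = 0.118). For these 3 genes every KO array was below every control array, but none passed the threshold. Cacnb1, the beta1 subunit, stayed within 10.28 to 10.32 in all 6 arrays, and its 95% interval ran from -0.13 to 0.15.

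Clcn1, the ClC-1 chloride channel that carries most of the resting conductance of the fiber, had lower values in both comparisons. It read 10.66, 10.64 and 10.78 in control and 10.38, 10.28 and 10.46 in KO gastrocnemius, and 8.26 and 8.29 in control and 7.99 and 7.96 in shlincMYH TA. The groups did not overlap in either tissue, and the differences were -0.32 (SE 0.0762, adjusted p = 0.0883) and -0.30 (SE 0.114, adjusted p = 0.547), neither of which passed. Of the other chloride genes, Clcn5, an endosomal exchanger, was higher by 0.20 in KO gastrocnemius (SE 0.0766, adjusted p = 0.273), and the 7 genes spanned -0.32 to 0.20 there and -0.30 to 0.24 in TA.

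Inward rectifiers of the fiber had negative differences in both tissues. Kcnj2, or Kir2.1, read 8.59, 8.77 and 9.01 in control and 8.33, 8.36 and 8.52 in KO gastrocnemius (difference -0.39, SE 0.111, adjusted p = 0.149) and differed by -0.18 in TA (SE 0.125, adjusted p = 0.745). Kcnj12, or Kir2.2, differed by -0.23 in KO gastrocnemius (SE 0.107, adjusted p = 0.378) and by -0.26 in TA (SE 0.152, adjusted p = 0.682). The voltage-gated pore Kcnc4, or Kv3.4, differed by -0.48 in KO gastrocnemius (SE 0.198, adjusted p = 0.309), with overlap: its control arrays ranged from 8.65 to 9.43 and its KO arrays from 8.44 to 8.85. Kcna7, or Kv1.7, differed by -0.20 (SE 0.0711, adjusted p = 0.228), Kcnma1, the BK pore, by -0.15 (SE 0.0774, adjusted p = 0.451) and Kcnq5, or Kv7.5, by 0.20 (SE 0.0927, adjusted p = 0.374). Cacna1h, a T-type calcium channel, was at 0.06 in both tissues.

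**Figure D4:**
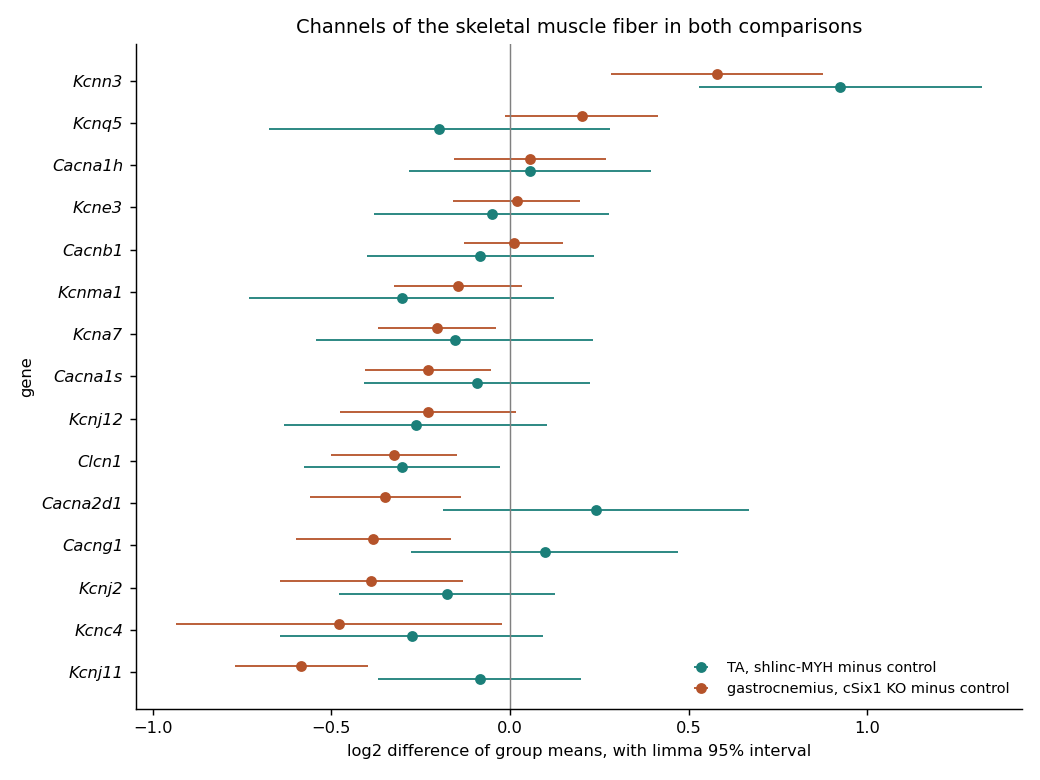
Differences of the 15 measured channels of the muscle fiber (vertical axis, ordered by their gastrocnemius value; horizontal axis, log2 difference with the limma 95% interval), in TA (green) and gastrocnemius (orange). Kcnn3 lies to the right of 0 in both, at 0.93 and 0.58, and in gastrocnemius 10 of the 15 points lie to the left, Kcnj11 farthest at -0.58.

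Kcnn3 encodes SK3, a calcium-activated potassium channel known to appear in fibers that have lost their nerve. It read 7.08 and 7.14 in control and 7.83 and 8.25 in shlincMYH TA, and 7.68, 7.80 and 7.74 in control and 8.55, 8.39 and 8.02 in KO gastrocnemius. In each tissue all treated or KO arrays were above all control arrays. The differences were 0.93 (SE 0.164, adjusted p = 0.306) in TA and 0.58 (SE 0.129, adjusted p = 0.0762) in gastrocnemius, neither past the threshold, and they differed by 0.35 from each other (SE 0.221, adjusted p = 0.565). The list of 6 genes of the denervation response (Chrng, Chrna1, Myog, Ncam1, Gadd45a and Runx1) was above 0 in 6 of 6 in both tissues. The medians were 1.27 in TA (0 called) and 0.99 in gastrocnemius (3 called, beside 0.908% of all genes called higher there). Mean levels of the list per array were 5.82 to 6.52 in control and 7.38 to 7.48 in shlincMYH TA, and 7.78 to 8.15 in control and 8.57 to 9.28 in KO gastrocnemius. Its part in the Kcnn3 values was not tested.

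Outside the fiber list, several channel genes came close to the threshold in gastrocnemius. Cacng7, a gamma subunit related to the TARP proteins that accompany glutamate receptors, read 8.59, 8.94 and 8.68 in control and 8.15, 8.11 and 8.33 in the KO (difference -0.54, SE 0.107, adjusted p = 0.0534). Kcnf1, the silent subunit Kv5.1, read 6.65, 6.42 and 6.30 in control and 5.90, 5.82 and 6.05 in the KO (difference -0.53, SE 0.106, adjusted p = 0.0560), the KO arrays being near the background level of 6.04. Kcnab1, the Kv beta1 subunit, read 6.35, 6.71 and 6.48 in control and 6.06, 6.10 and 6.26 in the KO (difference -0.37, SE 0.105, adjusted p = 0.142), the KO values of 6.06 and 6.10 also being near that level. In these 3 genes the KO arrays lay below the control arrays, and none passed.

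On the higher side, Cacnb4, the beta4 subunit, read 7.45, 7.04 and 7.02 against 7.89, 7.84 and 7.50 (difference 0.58, SE 0.145, adjusted p = 0.105). Kcne1l, a KCNE subunit, read 6.47, 6.67 and 7.09 against 7.20, 7.26 and 7.64 (difference 0.62, SE 0.174, adjusted p = 0.139). Kcnj3, a pore of the G-protein-gated inward rectifier, was higher by 0.30 (SE 0.0945, adjusted p = 0.187), and Scn7a, a sodium-sensing member of the sodium channel family, by 0.38 (SE 0.122, adjusted p = 0.190). None of these 4 genes passed, although no KO array fell among the control arrays.

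Kcnn4, a calcium-activated potassium channel of immune and red blood cells, read 6.41, 6.32 and 6.12 in control and 6.89, 6.44 and 6.66 in KO gastrocnemius (difference 0.38, SE 0.124, adjusted p = 0.202). It belonged to a list of 5 immune cell channels (Kcna3, Kcnn4, Kcnk13, Kcnk6 and Kcnj15), all above 0 in gastrocnemius with a median of 0.06 (4 after quantile normalization, 3 with centring) and 0 called. Of these 5, 2 were dim there. The 6 macrophage markers were above 0 in 6 of 6 there (median 0.74, 1 called), with mean levels per array of 7.96 to 8.24 in control and 8.48 to 9.29 in the KO, and all 6 were above background; their part in these values was not tested.

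Partners of the channels in excitation were read from a list of 26 genes, of which 21 were measured. In KO gastrocnemius 5 fell and 0 rose, beside 0.833% and 0.908% of all genes, and 5 of the 21 differences were above 0 and 16 below, beside 52.8% of all genes above 0 (median -0.13, beside 0.008). Jph2, a junctophilin that ties the transverse tubule to the sarcoplasmic reticulum, fell by 0.56 (SE 0.0726, adjusted p = 0.0139), and its relative Jph1 fell by 0.46 (SE 0.0743, adjusted p = 0.0286). Fgf13, an intracellular factor that binds sodium channels, fell by 0.79 (SE 0.109, adjusted p = 0.0162), and Atp1b2, a beta subunit of the sodium pump, fell by 0.40 (SE 0.0626, adjusted p = 0.0253). Abcc9, the SUR2 subunit that assembles with the Kcnj11 pore, read 11.45, 11.48 and 11.50 in control and 11.00, 10.97 and 11.21 in the KO, and fell by 0.42 (SE 0.0795, adjusted p = 0.0486). The Abcc9 call was lost after quantile normalization (adjusted p = 0.0613). With the replicate number as a block the adjusted p was 0.0613 for Jph1, 0.0525 for Fgf13, 0.0897 for Atp1b2 and 0.096 for Abcc9, and Jph2 alone of the 5 stayed past the threshold. The methods' t-test called none of the 5 after adjustment. The 5 calls also rest on single arrays: without cSix1 KO replicate 1 the adjusted p was 0.0658 for Jph2, 0.123 for Jph1, 0.0673 for Fgf13, 0.114 for Atp1b2 and 0.177 for Abcc9, and all 5 were lost without cSix1 KO replicate 2 or control replicate 2 as well, except Fgf13 without the latter. Without control replicate 1 or 3, Jph1, Atp1b2 and Abcc9 were lost, and in the fit of all 10 arrays Atp1b2 (adjusted p = 0.395), Jph2 (0.123) and Abcc9 (0.0757). In TA 0 of the 21 were called, 1 had an unadjusted p under 0.05, and 8 differences were above 0 and 13 below, from -0.61 to 0.31. The 4 partners with the largest moderated t in TA, all below 0, were at -0.38 for the chloride channel Ano1, which was dim there (SE 0.140, adjusted p = 0.540), -0.61 for the sodium pump subunit Atp1b1 (SE 0.258, adjusted p = 0.585), -0.23 for Fxyd1 (SE 0.115, adjusted p = 0.640) and -0.28 for Abcc9 (SE 0.144, adjusted p = 0.641). Without single arrays the Atp1b1 value ran from -0.98 to -0.24 and that of Abcc9 from -0.44 to -0.12. Among the positive values, Atp1b2 was at 0.31 (SE 0.280, adjusted p = 0.813) with overlap.

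In TA no channel gene was called after linc-MYH knockdown (limma, 0 of 134; over all genes 0.015% were called, all 3 of them higher). At an unadjusted p under 0.05 there were 2 higher and 9 lower, beside 4.27% and 4.37% of all genes, and the arrays did not overlap for 15 higher and 31 lower, beside 16.3% and 23%. Differences were below 0 for 89 of the 134 genes and above 0 for 45 (43.7% of all genes were above 0), with a median of -0.06 beside -0.03 over all genes. After quantile normalization the split was 75 below and 59 above, and with centring 71 and 63. With the spread estimated over all 10 arrays, 3 channel genes were called (Kcnn3 higher, Kcnk1 and Scn4b lower), and 131 of all 19938 genes, beside 3 in the main fit. The count in TA thus depends on how the spread of 2 arrays per group is estimated.

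The largest negative differences in TA were those of Kcna5 and Scn4b. Kcna5, or Kv1.5, a delayed rectifier also known from vascular smooth muscle, read 7.04 and 6.77 in control and 5.73 and 6.22 with shlincMYH (difference -0.93, SE 0.194, adjusted p = 0.399). Scn4b, the beta4 subunit of sodium channels, read 7.05 and 7.25 against 6.50 and 6.31 (difference -0.74, SE 0.137, adjusted p = 0.319). In gastrocnemius Scn4b differed by -0.21 (SE 0.0936, adjusted p = 0.340), again with no overlap.

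Kcnj14, or Kir2.4, read 5.29 and 5.48 in control and 4.99 and 4.57 with shlincMYH (difference -0.60, SE 0.171, adjusted p = 0.484). The value of 4.57 lies below the TA background level of 4.86. Kcnk1, the K2P leak channel TWIK1, read 5.63 and 5.79 against 5.08 and 5.21 (difference -0.57, SE 0.127, adjusted p = 0.428). Cacna1c, the Cav1.2 pore of cardiac and smooth muscle, read 5.01 and 4.97 against 4.54 and 4.58 (difference -0.44, SE 0.114, adjusted p = 0.471), just above background in control and below it with shlincMYH. The antisense transcript Kcnmb4os1 differed by -0.32 (SE 0.121, adjusted p = 0.547). The shlincMYH arrays of these 4 lay below the control arrays in each case.

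Among the genes above background in TA whose arrays did not overlap, the higher values were under 0.5 apart from that of Kcnn3. Kcne1l read 5.63 and 5.50 in control and 6.32 and 5.73 with shlincMYH (difference 0.46, SE 0.204, adjusted p = 0.605), and the difference ran from 0.16 to 0.75 without single arrays. Kcnh4, an ether-a-go-go family pore, differed by 0.23 (SE 0.114, adjusted p = 0.640), the K2P family members Kcnk15 and Kcnk7 by 0.17 and 0.09, the antisense transcript Kcnd3os by 0.11 and the BK subunit Kcnmb3 by 0.06. In each of these the groups did not overlap, and the adjusted p was 0.737 or more for the last 4.

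Channels known from vessel walls had negative differences in TA. Of a list of 8, the 6 measured (Kcnj8, Kcnmb1, Cacna1c, Cacnb2, Kcnk3 and Kcna5) were all below 0 with a median of -0.31 (5 of 6 after quantile normalization or centring), 4 without overlap. Over all genes in TA, 23% were lower without overlap, 43.7% were above 0 and the median was -0.03. These shares stand beside the marker lists below as well. In gastrocnemius the 6 channels were also below 0 but with a median of -0.05 and overlap in all. Kcnmb1 and Cacnb2 were dim in both tissues. The 6 endothelial markers Pecam1, Cdh5, Kdr, Flt1, Tek and Emcn, all above background, were lower in TA in 6 of 6 without overlap (median -0.76, 0 called), with mean levels per array of 7.47 to 7.53 in control and 6.41 to 7.15 with shlincMYH; in gastrocnemius their median was 0.07. The 6 smooth muscle and pericyte markers, also all above background, had a median of -0.49 in TA and of 0.05 in gastrocnemius. Their mean levels in TA were 6.94 to 7.29 in control and 6.51 to 6.86 with shlincMYH. In TA all 6 were below 0, but only 3 without overlap, and Cspg4 and Notch3 were at -0.01 and -0.07. Acta2 read 8.49 and 7.05 in control and 7.02 and 7.44 with shlincMYH. The part of these cells in the channel values was not tested.

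Of the channels known from nerve, 9 were measured (Kcna1, Kcna2, Scn1a, Scn8a, Scn9a, Scn10a, Scn7a, Kcnj10 and Kcnc1). In each tissue 5 of them were dim, beside 69 of all 134 channel genes in TA and 55 in gastrocnemius. Their medians were -0.06 in TA and 0.02 in gastrocnemius, with 0 called. The 5 measured Schwann cell and nerve markers (Pmp22, Mbp, Sox10, S100b and Cdh19) had medians of -0.25 in TA and 0.03 in gastrocnemius, and 3 of 5 were above background in TA. All 5 had overlapping groups in TA. Their mean levels per array there were 5.04 to 5.84 in control and 5.14 to 5.21 with shlincMYH.

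Between the comparisons, 0 channel genes passed the test of the difference (shlincMYH minus control in TA, less KO minus control in gastrocnemius; 0.145% of all genes were called), and 19 had an unadjusted p under 0.05, beside 12.3%. By moderated t, the leading positive values were those of Kcng4 at 1.38 (SE 0.304, adjusted p = 0.149), Kcnf1 at 0.83 (SE 0.195, adjusted p = 0.156) and Kcnj11 at 0.50 (SE 0.131, adjusted p = 0.193). The leading negative values by moderated t were those of Kcnk1 at -0.51 (SE 0.122, adjusted p = 0.157), Kcna5 at -0.92 (SE 0.240, adjusted p = 0.192) and Cacna1c at -0.41 (SE 0.124, adjusted p = 0.251). Some values farther from 0 had a lower t, among them 0.59 for Cacna2d1 (SE 0.195, adjusted p = 0.282) and -0.65 for Cacnb4 (SE 0.217, adjusted p = 0.286), the latter dim in TA. In gastrocnemius Kcnk1, Kcna5 and Cacna1c read differences of -0.05, -0.01 and -0.02. The comparisons use different arrays throughout, and tissue, delivery of the agent and sampling differ between them, so that the agent and these cannot be told apart.

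Without overlap in both tissues, 3 genes were higher (Kcnn3, Kcne1l and Cacna1d, the last dim in TA), 7 were lower (Kcng4, Kcnj11, Clcn1, Kcnj2, Scn4b, Clcn4 and Kcnn1) 1, Kcnf1, was higher in TA, where it was dim, and lower in gastrocnemius, and 0 were lower in TA and higher in gastrocnemius. Over all 19938 genes the same counts were 522, 510, 272 and 344. Cacna1d, Clcn4 and Kcnn1 were named for this count after their values were seen.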

How the data were processed

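Total RNA from TA fibers (4 samples) and whole gastrocnemius (6 samples) was hybridised to Affymetrix Mouse Gene 1.0 ST arrays. The authors deposited log2 signals after RMA (background subtraction, a common distribution of signals and a summary per probe set); the submitters' processing notes also list Partek, without versions. RMA makes arrays comparable within a tissue, but the tissues have different distributions, so levels were compared within a tissue only. Arrays have no read depth, and their number limits the precision; no arrays of a group held identical values.

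Of 35556 probe sets, 21789 carried 1 gene symbol in the platform annotation, 1621 several and 12146 none; the first were used, with the probe set of highest mean signal for the 999 genes with more than 1, giving 19938 genes. Sets were named by the platform's symbols, and 21698 probe sets matched RefSeq (GRCm38.p6). Differences were tested per tissue with limma 3.58.1 (R 4.3.3, lmFit and eBayes) over all genes with Benjamini-Hochberg adjustment at 0.05, and the difference between the comparisons in 1 fit of all 10 arrays. The fits were tested on simulated data with known changes.

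The members, the gene lists and the tests were chosen with earlier results of these data known. Named genes were every channel gene called, the 8 highest and 8 lowest by moderated t per comparison among those above background whose groups did not overlap, the fiber channel list, 3 per direction of the difference between comparisons, and 4 partner genes per comparison; Abcc9 in gastrocnemius was described after its value was seen. Alternatives were quantile normalization, centring, removal of dimmer genes, the mean over probe sets, a fit of all 10 arrays, a robust prior that follows intensity, weighting of arrays, a replicate block, the methods' t-test (unpaired, equal variance) and leaving out each array; fitting each probe set was added after seeing the data. Probe sets shared by several genes, and genes without one, were left out. The 3 shared by sodium channel pores were described but counted for no gene. Python 3.11.15 was used for summaries and figures.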

Additional observations from a re-analysis of the deposited data

How the results depend on the processing

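In gastrocnemius the 3 called channel genes became 10 with array weights, 7 with an intensity trend and robust prior, 5 with arrays centred on their median and 0 with the methods' t-test, which gave 20 channel genes at an unadjusted p under 0.05 and 4 of all genes after adjustment (11 and 0 in TA). Leaving out 1 array gave 2 to 8, the highest without cSix1 KO replicate 3. Calls over all genes rose from 347 to 989 with array weights, 543 with the trend and robust prior and 389 with centring. Without cSix1 KO replicate 3 they were 560. Without the dimmer genes 3 were called, Cacng7 in place of Kcng4, which that filter leaves out. In TA the 0 became 3 in the fit of all 10 arrays and stayed 0 under the other alternatives and without each array, and the test between comparisons stayed at 0 under all of its alternatives. The fit of all 10 arrays called 131 of all genes in TA, beside 3 in the main fit. The replicate numbers were not taken to pair samples, since correlations of same-numbered deviations were 0.185 in TA and 0.216, -0.137 and 0.084 in gastrocnemius, and not every gastrocnemius sample correlated best with its own number; with the number as a replicate block 0 channel genes were called in TA, 4 in gastrocnemius (Kcne1l added) and 0 between comparisons, and the partners Jph1, Fgf13, Atp1b2 and Abcc9 were no longer called.

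The median change in TA, -0.06, was -0.019 after quantile normalization, -0.024 with centring, -0.083 without dimmer genes and -0.057 to -0.034 without single arrays. That in gastrocnemius, 0.003, was -0.093 without dimmer genes and -0.042 to 0.047 without single arrays. With the median of all genes as the dim level, 91 channel genes were dim in gastrocnemius in place of 55, and 91 in TA in place of 69. Of the single genes not called, signs turned for Kcnma1 in TA (0.094 as the mean of its probe sets, 0.49 for 1 of them, and 0.13 for 1 of them in gastrocnemius), Scn2a in TA (-0.065 for 1 probe set) and, in gastrocnemius with array weights, Cacna1h (-0.0075), Cacnb1 (-0.0019), Kcna5 (0.057) and Kcne3 (-0.051), and with centring Cacnb1 (-0.037) and Kcne3 (-0.028). Without single arrays, signs turned in TA for Cacna1h (-0.052 to 0.17), Kcnq5 (-0.46 to 0.069), Cacna1s (-0.21 to 0.025), Kcna7 (-0.36 to 0.046), Kcne3 (-0.18 to 0.073), Cacng1 (-0.082 to 0.28) and Cacnb1 (-0.20 to 0.036), and in gastrocnemius for Cacna1c (-0.079 to 0.031), Kcna5 (-0.083 to 0.13), Cacna1h (-0.015 to 0.15) and Kcne3 (-0.028 to 0.063). The cause of these changes was not tested. For dim genes, which lie at the level of the odorant receptor genes, these arrays may not show a difference.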
